A study of Mus musculus with 36 samples.

Results

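The genes described are 35 that encode the enzymes of glycolysis, the proteins that store and break down glycogen, and the carriers that move glucose and lactate across the muscle membrane. They were found by matching the listed gene symbols to the Ensembl IDs of the deposited count tables, which hold 51912 gene rows for each muscle, and all 35 were found. RNA-seq was done on whole TA, a fast muscle of the lower leg, and on soleus, a slow muscle of the calf, from 3-month-old male C57BL/6 mice. WT mice were compared with ∆Ig3-MuSK mice, which are homozygous for a CRISPR-Cas9 deletion of the Musk exons that encode the third immunoglobulin-like domain of the receptor, the part that binds BMPs. The deletion is carried in the germline and so is present in every cell of the animal. Each muscle of each genotype was sequenced in 9 libraries, which gives 4 groups and 36 libraries in all.

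As background, glycolysis splits glucose to pyruvate in the cytosol and yields ATP without oxygen. Fast fibers rely on it, and on glycogen as the local store of glucose, for short and forceful contractions, whereas slow fibers are rich in mitochondria and oxidize fat, pyruvate and lactate. Several steps are served by isozymes from separate genes, and muscle is known for its own forms, such as Pfkm, Pgam2, Eno3 and Pygm. Lactate made by fast fibers leaves through the carrier MCT4 (Slc16a3), and oxidative fibers take it up through MCT1 (Slc16a1).

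A pair of isozyme sets on which the description turns is shown by the sequence at the gene starts, since the members of each set differed in opposite directions between the muscles. The sequences are RefSeq promoters of GRCm38.p6 that span an annotated start, 300 bases each, and 33 of the 35 genes matched an entry, with 48 promoters in all. Capitals mark ACGTG on either strand and matches to the MEF2 motif, for the muscle transcription factor family MEF2. The first promoter listed for Ldha (the lactate dehydrogenase subunit typical of fast muscle) lies at chr7:46845554-46845853, plus strand, and that of Ldhb (the subunit typical of heart and slow muscle) at chr6:142507908-142508207, minus strand. Those of Pgam2 (muscle phosphoglycerate mutase) and Pgam1 (the form of most other tissues) lie at chr11:5803747-5804046, minus strand and chr19:41911621-41911920, plus strand.
Ldha: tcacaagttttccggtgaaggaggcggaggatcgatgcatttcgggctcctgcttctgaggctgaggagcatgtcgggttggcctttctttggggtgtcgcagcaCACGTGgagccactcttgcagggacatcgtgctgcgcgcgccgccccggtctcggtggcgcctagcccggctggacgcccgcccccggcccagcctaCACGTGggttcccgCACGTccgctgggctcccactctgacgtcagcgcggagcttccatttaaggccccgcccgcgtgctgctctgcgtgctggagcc
Ldhb: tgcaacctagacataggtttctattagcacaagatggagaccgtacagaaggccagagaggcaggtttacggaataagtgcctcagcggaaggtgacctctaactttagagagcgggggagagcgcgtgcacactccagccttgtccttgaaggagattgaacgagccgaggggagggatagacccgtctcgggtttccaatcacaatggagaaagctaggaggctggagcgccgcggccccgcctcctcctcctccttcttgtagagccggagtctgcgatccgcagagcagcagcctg
Pgam2: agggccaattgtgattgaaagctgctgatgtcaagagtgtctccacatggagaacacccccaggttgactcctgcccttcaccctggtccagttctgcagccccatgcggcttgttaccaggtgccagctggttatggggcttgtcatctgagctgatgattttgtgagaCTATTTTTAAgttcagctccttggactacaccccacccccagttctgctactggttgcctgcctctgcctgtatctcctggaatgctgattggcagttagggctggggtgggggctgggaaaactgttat
Pgam1: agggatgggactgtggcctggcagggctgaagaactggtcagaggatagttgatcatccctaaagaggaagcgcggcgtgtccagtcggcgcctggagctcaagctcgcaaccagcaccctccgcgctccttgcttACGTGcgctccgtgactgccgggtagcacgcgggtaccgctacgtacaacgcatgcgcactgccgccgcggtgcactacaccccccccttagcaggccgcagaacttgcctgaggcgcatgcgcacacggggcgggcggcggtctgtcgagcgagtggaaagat

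The printed Ldha promoter held 5 matches to ACGTG, counted on both strands so that the palindrome CACGTG counts on each, and the Pgam1 promoter held 1. A second Ldha promoter of the table, at chr7:46846832-46847131, plus strand, held 0. The Ldhb promoter held neither motif. The Pgam2 promoter held 1 match to the MEF2 motif and no ACGTG. Over the members, 21 of 48 promoters (43.8%) held ACGTG, beside 19.6% of all 32851 promoters in the table. The share was 43.8% among promoters of members lower in the WT soleus and 40.0% among those of members higher there. The MEF2 motif was found in 3 of 48 promoters, those of Pgam2, Ppp1r3a and Pfkfb1, which is 6.25% beside 3.19% of all promoters. These matches describe the letters of these windows only.

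The libraries held 43492062 to 78660422 counts each. The labels of the muscles matched the fiber genes, since Myh7, the slow myosin heavy chain, was at 1.99 to 37.5 CPM (library-size-scaled counts, with factors set over all 36 libraries) in the TA and at 6542 to 10764 CPM in the soleus. Musk itself (chr4:58285960-58374303) was at 3.81 CPM (median) in the WT TA, 3.08 in the ∆Ig3-MuSK TA, 14.7 in the WT soleus and 10.5 in the ∆Ig3-MuSK soleus. Neither genotype difference had an adjusted p under 0.05 by edgeR's quasi-likelihood test. The log2 fold change was -0.46 (adjusted p 0.135) in the TA and -0.44 (adjusted p 0.0978) in the soleus. The tables give 1 count per gene and none per exon, so the deletion itself cannot be read from them. The summed leukocyte markers of the soleus ranged from 60.5 to 162 CPM in WT and from 19.9 to 99.1 CPM in ∆Ig3-MuSK mice, and those of fibroblasts from 718 to 1913 CPM and from 336 to 1078 CPM. Whole muscles were used, so fewer cells of a type and less RNA per cell cannot be told apart, and summed markers of endothelial cells had a median of 431 CPM in the WT soleus and 299 CPM in the WT TA. Fast-fiber markers summed to 69761 to 93097 CPM in the TA and 20574 to 42910 CPM in the soleus. Their part in the muscle differences below was not tested.

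In scaled counts, which are relative to each library, most of these genes were lower in the soleus. Against the TA, 21 of the 35 members were lower in the WT soleus and 12 were higher, by edgeR's quasi-likelihood test at an adjusted p under 0.05 and at least a 1.2-fold difference. Over all 20841 genes tested, 27.3% were called lower and 30.2% higher. In ∆Ig3-MuSK mice, whose libraries are separate from those of WT, 21 members were lower and 11 higher, beside 27.6% and 28.5% of all genes, and 32 members were called in the same direction in both genotypes. The median log2 fold change of the members was -0.96 in WT and -0.90 in ∆Ig3-MuSK mice, whereas that of all genes was 0.02 and 0.00. The CPM ranges of TA and soleus did not overlap for 32 members in WT and 30 in ∆Ig3-MuSK mice, which held for 28.3% and 29.4% of all genes.

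**Figure D1:**
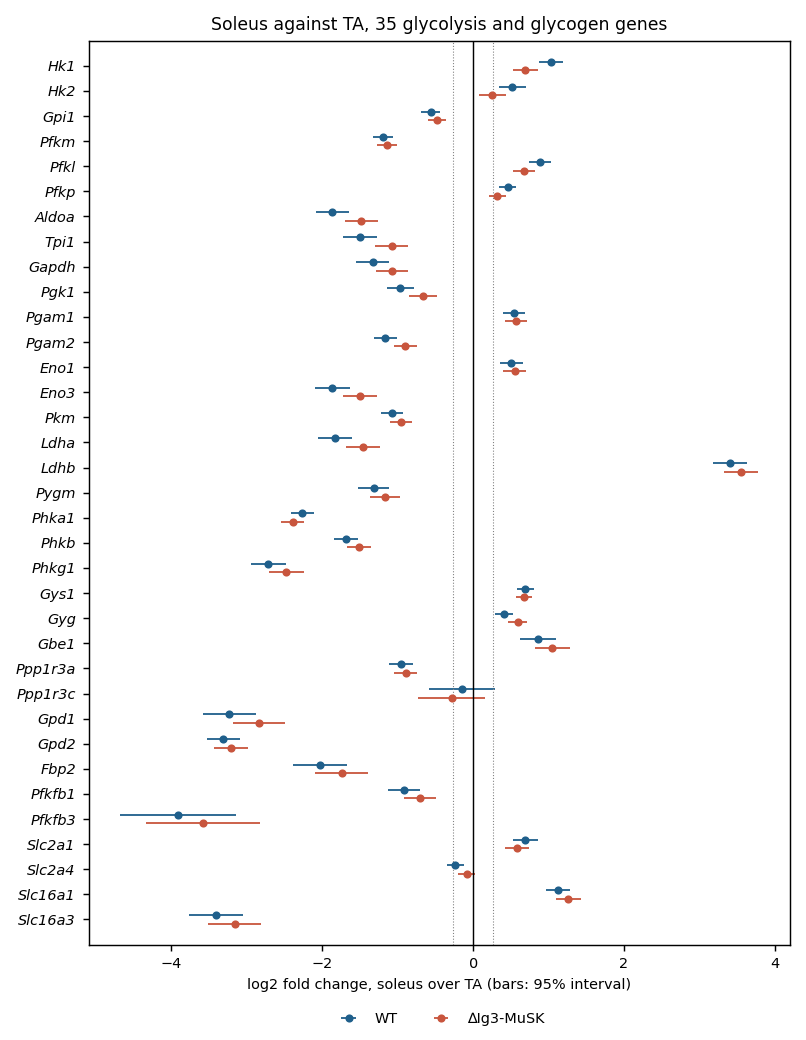
Log2 fold change of the soleus over the TA (x axis) for the 35 genes (y axis), with the WT estimate in blue, the ∆Ig3-MuSK estimate in red, 95% intervals as bars and dotted lines at a 1.2-fold difference (n = 9 libraries per group). Ldhb stood farthest to the right, at 3.40 in WT, and Pfkfb3 farthest to the left, at -3.91.

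Of the 7 genes of the first steps, both hexokinases and the minor phosphofructokinases Pfkl and Pfkp were higher in the WT soleus, and Gpi1, Pfkm and Aldoa were lower. Hexokinase 2 (Hk2), which traps glucose in the insulin-responsive muscle cell, ranged from 187 to 323 CPM (median 283) in the WT TA and from 339.9 to 447 CPM (median 395) in the WT soleus, a log2 fold change of 0.52 (SE 0.087) with an adjusted p of 1.92e-06. In ∆Ig3-MuSK mice the Hk2 difference was 0.25 (SE 0.086), just under the 1.2-fold minimum, and the ranges of TA and soleus overlapped. Hk1, the hexokinase of most tissues, was at 7.03 ± 1.02 CPM in the WT TA and 14.4 ± 1.68 CPM (SD, n = 9) in the WT soleus, 2.05-fold higher. Pfkm, the muscle phosphofructokinase that commits sugar to glycolysis, ranged from 2605 to 3412 CPM (median 3003) in the WT TA and 1132 to 1633 CPM (median 1290.3) in the WT soleus, with no overlap. Its log2 fold change was -1.19 (SE 0.067) in WT and -1.14 (SE 0.067) in ∆Ig3-MuSK mice.

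The liver and platelet phosphofructokinases, Pfkl and Pfkp, were higher in the soleus, by log2 0.89 (SE 0.072) and 0.46 (SE 0.054) in WT. Both remained minor forms, since Pfkm made up 99.8% ± 0.0185 (SD, n = 9) of the counts per kb of the 3 genes in the WT TA and 99.3% ± 0.133 in the WT soleus. The exons of Pfkp overlap those of Pitrm1 on the other strand over 748 bp, and the libraries carry no strand. Gpi1, which interconverts glucose and fructose phosphates, was lower in the soleus by a modest amount, with a log2 fold change of -0.57 (SE 0.059) in WT and -0.48 (SE 0.059) in ∆Ig3-MuSK mice. Aldoa, the muscle aldolase (chr7:126795234-126800751), had the highest level per kb of the 34 genes other than Gapdh in all 4 groups. It ranged from 10744 to 18150.0 CPM (median 12401) in the WT TA, 10818 to 13375 CPM (median 11661) in the ∆Ig3-MuSK TA, 2851 to 5127 CPM (median 3136) in the WT soleus and 3467 to 4903 CPM (median 4069) in the ∆Ig3-MuSK soleus. Every TA library lay above every soleus library, and Aldoa was 3.65-fold lower in the WT soleus, with an adjusted p of 1.41e-17.

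Of the 8 genes of the triose steps, 6 were lower in the soleus of both genotypes and 2 were higher. Tpi1 (triose phosphate isomerase) was 2.83-fold lower in the WT soleus, Gapdh (glyceraldehyde phosphate dehydrogenase) 2.52-fold and Pgk1 (phosphoglycerate kinase) 1.95-fold. Pgam2 ranged from 1069 to 1477 CPM (median 1260.0) in the WT TA and 513 to 694 CPM (median 551.1) in the WT soleus, and Eno3, the muscle enolase, from 3319.9 to 5371 CPM (median 3817) and 828 to 1623 CPM (median 955). Their log2 fold changes were -1.17 (SE 0.075) and -1.87 (SE 0.11), and no soleus library of WT reached the lowest TA library for either gene. Pkm, the pyruvate kinase of muscle, had a log2 fold change of -1.08 (SE 0.074) in WT and -0.96 (SE 0.073) in ∆Ig3-MuSK mice.

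The widely expressed forms Pgam1 and Eno1 were higher in the soleus, by log2 0.54 (SE 0.073) and 0.51 (SE 0.074) in WT. They contributed little, since Pgam2 held 99.7% ± 0.0308 of the pair's counts per kb in the WT TA and 99.1% ± 0.142 in the WT soleus, and Eno3 held 99.8% ± 0.0205 and 99.1% ± 0.23 of its pair. The rows of 7 members are uncertain, because at least 25% of the 50-base stretches of their longest transcript occur in another gene. The shares were 72.2% for Eno1, 68.0% for Pgk1, 41.5% for Pgam1, 34.4% for Pkm, 27.8% for Gapdh, 27.0% for Ldhb and 25% for Phkg1. The gene that shares most with each (Eno1b, Pgk1-rs7, Pgam1-ps2, Gm6560, Gm7336, Gm5514 and Sumf2) was called in the same direction as the member between the muscles of both genotypes, with log2 fold changes in WT of 0.61, -1.16, 0.35, -0.77, -1.34, 3.51 and -2.37. Sumf2 is not a copy, since its exons overlap those of Phkg1 over 630 bp on the other strand, and reads there can be counted for either gene. For Gapdh the deposited row held 2203615 counts in all against 7871942 in the row of Gm7336, and 109394290.0 counts in all genes that share its sequence, so the Gapdh level cannot be compared with those of other genes.

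By mean share of the pair, the main lactate dehydrogenase RNA differed between the muscles, Ldha in the TA and Ldhb in the soleus. Ldha (chr7:46841475-46855627), whose promoter is printed above, ranged from 1428 to 2546 CPM (median 1743) in the WT TA, 1389.5 to 1728 CPM (median 1564) in the ∆Ig3-MuSK TA, 399.8 to 753 CPM (median 459) in the WT soleus and 441 to 659 CPM (median 585) in the ∆Ig3-MuSK soleus. Ldhb (chr6:142490249-142507957) went the other way, from 54.8 to 89.3 CPM (median 62.8) in the WT TA and 34.5 to 84.0 CPM (median 58.3) in the ∆Ig3-MuSK TA to 645 to 782 CPM (median 700.2) in the WT soleus and 593 to 808 CPM (median 723) in the ∆Ig3-MuSK soleus. The TA and soleus ranges of both genes were apart in both genotypes. Ldhb was 10.6-fold higher in the WT soleus (log2 3.40 (SE 0.11), adjusted p 3.99e-25) and 11.7-fold higher in the ∆Ig3-MuSK soleus. Per kb, Ldha made up 92.7% ± 1.33 (SD, n = 9) of the pair in the WT TA and 25.3% ± 4.85 in the WT soleus, and 92.4% ± 1.80 and 27.4% ± 3.27 in the same muscles of ∆Ig3-MuSK mice. The size of the shift depends on length scaling, since the merged exons of Ldha (3310 bp) exceed its longest transcript (1815 bp). With no length scaling Ldha held 96.4% ± 0.683 in the WT TA and 41.5% ± 5.98 in the WT soleus, with up to 53.9% in 1 library there. In the ∆Ig3-MuSK soleus it held 44.2% ± 4.07.

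**Figure D2:**
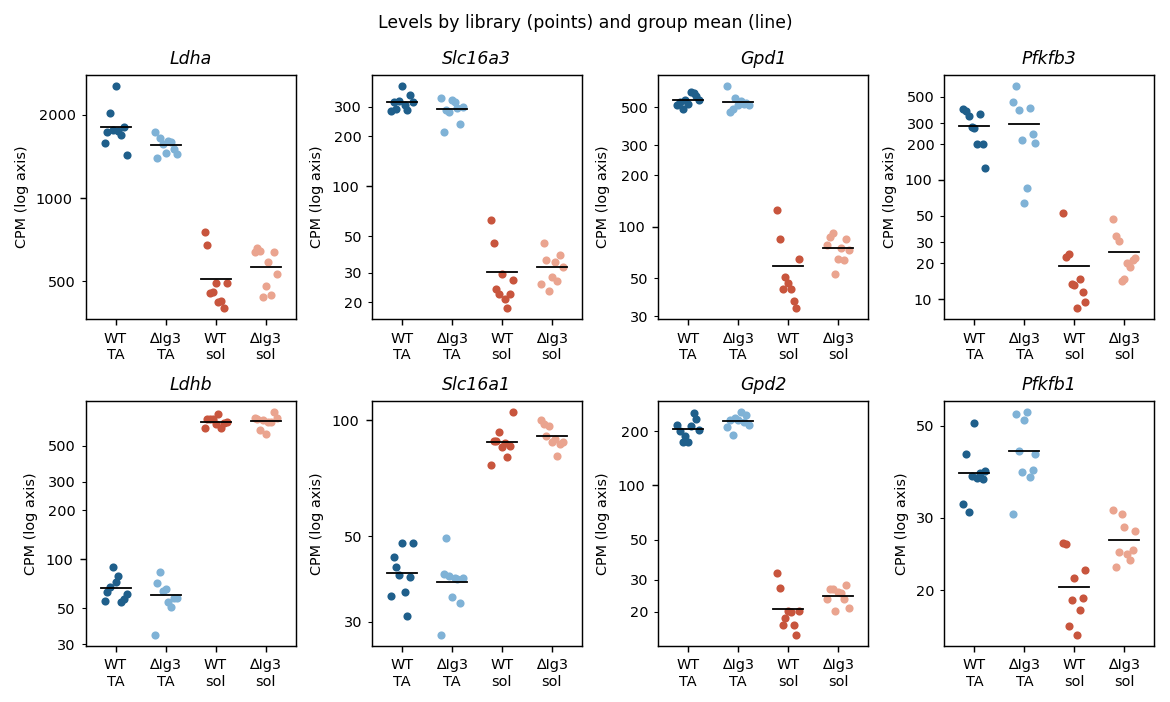
Levels in CPM (y axis, log scale) of 8 genes in the 36 libraries (points), by group (x axis: WT and ∆Ig3-MuSK TA, WT and ∆Ig3-MuSK soleus), with the group mean as a line. Ldhb and Slc16a1 were higher in the soleus, the other 6 genes were higher in the TA, and replicate 1 of the WT soleus was the highest WT soleus library for Ldha, Slc16a3, Gpd1, Gpd2, Pfkfb3 and Pfkfb1.

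Of the 4 carriers, Slc16a1 and Slc2a1 were higher in the WT soleus, Slc16a3 was lower and Slc2a4 was not called. Slc16a3 (MCT4) was at 322 ± 37.3 CPM in the WT TA and 30.3 ± 14.4 CPM (SD, n = 9) in the WT soleus, a 10.6-fold difference with an adjusted p of 3.08e-19. Slc16a1 (MCT1) was at 40.2 ± 5.83 CPM and 87.7 ± 8.13 CPM in the same groups, 2.18-fold higher in the soleus. Per kb, Slc16a3 held 86.9% ± 1.31 of the pair in the WT TA and 21.8% ± 8.27 in the WT soleus. Slc2a4, the insulin-responsive glucose carrier GLUT4, differed little, with 423 to 561 CPM (median 467) in the WT TA and 353 to 456 CPM (median 394) in the WT soleus. Its log2 fold change was -0.24 (SE 0.056) in WT with an adjusted p of 0.000324, under the 1.2-fold minimum, and -0.09 (SE 0.056) in ∆Ig3-MuSK mice with an adjusted p of 0.176. The basal carrier GLUT1 (Slc2a1) was higher in the soleus, at 10.4 ± 1.01 CPM against 6.46 ± 1.04 CPM in the WT TA, and endothelial cells, whose summed markers are given above, are known to express it.

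All 4 genes of glycogen breakdown were lower in the soleus of both genotypes. Pygm, the muscle glycogen phosphorylase, ranged from 3395 to 4665 CPM (median 3769.7) in the WT TA and 1198 to 2189.7 CPM (median 1427) in the WT soleus, a log2 fold change of -1.32 (SE 0.10). Phosphorylase kinase, which switches Pygm on, showed larger differences. Its regulatory subunit Phka1 was 4.80-fold lower in the WT soleus, Phkb was 3.21-fold lower and the catalytic subunit Phkg1 was 6.56-fold lower. Phkg1 ranged from 423 to 580.4 CPM (median 495) in the WT TA and 51.1 to 113 CPM (median 69.3) in the WT soleus. Its exons overlap those of Sumf2, so part of its reads cannot be assigned.

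The genes of glycogen synthesis went the opposite way. Gys1, the muscle glycogen synthase, ranged from 242 to 325 CPM (median 306) in the WT TA and 440.2 to 571 CPM (median 464) in the WT soleus, with no overlap and a log2 fold change of 0.69 (SE 0.054). Gyg, the glycogenin that primes a new glycogen particle, had a log2 fold change of 0.41 (SE 0.061) in WT and 0.59 (SE 0.061) in ∆Ig3-MuSK mice, and the WT ranges overlapped. Gbe1, the branching enzyme, had 0.86 (SE 0.12) and 1.05 (SE 0.12). Both phosphatase targeting subunits differed from these enzymes. Ppp1r3a, which holds the phosphatase at glycogen and the sarcoplasmic reticulum, was lower in the soleus, with a log2 fold change of -0.96 (SE 0.076) in WT. Ppp1r3c was not called, with a log2 fold change of -0.15 (SE 0.22) and an adjusted p of 0.562 in WT.

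The genes of the glycerol phosphate shuttle, which carries reducing power from glycolysis into mitochondria, had large differences. Gpd1, the cytosolic enzyme, ranged from 491 to 610.5 CPM (median 547.7) in the WT TA and 33.4 to 125 CPM (median 46.6) in the WT soleus, 9.39-fold lower. Gpd2, the mitochondrial enzyme, ranged from 174 to 251 CPM (median 203) and 14.9 to 32.5 CPM (median 19.8), 9.93-fold lower, with a log2 fold change of -3.31 (SE 0.11).

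Of the genes that set fructose bisphosphate, all 3 were lower in the soleus of both genotypes. Pfkfb3, which makes the activator of phosphofructokinase, showed the largest fold of the 35 members in WT. It ranged from 125 to 394 CPM (median 279.9) in the WT TA and 8.40 to 53.1 CPM (median 13.3) in the WT soleus, and its log2 fold change of -3.91 (SE 0.38) had the widest error of the members. Pfkfb1, another enzyme of this kind, had a log2 fold change of -0.91 (SE 0.10) in WT and -0.71 (SE 0.10) in ∆Ig3-MuSK mice, where the ranges overlapped. Fbp2, the muscle fructose bisphosphatase that works against Pfkm, was at 20.1 ± 2.81 CPM in the WT TA and 4.92 ± 1.58 CPM (SD, n = 9) in the WT soleus.

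Gapdh was left out of the order by level per kb, which covers 34 members, and the other rows with shared sequence keep that doubt. The order also depends on the length used, since merged exons can exceed the longest transcript, as for Ldha (3310 against 1815 bp). In the WT TA, Aldoa (4434 ± 739 CPM per kb, SD) was followed by Eno3 (2262 ± 337), Pgam2 (1533 ± 155), Pygm (1203 ± 136) and Pfkm (908 ± 69.3). In the WT soleus, Aldoa (1216 ± 285) was followed by Pgam2 (683 ± 68.3), Eno3 (620.5 ± 171), Pygm (483 ± 112) and Ldhb (449 ± 28.7). In the WT TA each of these means stood above the next by more than the SD of either. In the WT soleus, by contrast, the neighbours from Pgam2 to Ldhb differed by less than the larger of their SDs, and Aldoa stood apart. Ldhb stood at place 20 in the WT TA and at place 5 in the WT soleus. Phka1 stood at places 12 and 17.

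Other genes of the pathway gave a mixed account, beside 27.3% of all genes called lower and 30.2% called higher in the WT soleus. Of 20 other glycolysis enzymes, 16 were tested and 9 were lower in the WT soleus, with Pfkfb4 (log2 -2.12 (SE 0.12)), Ldhc (log2 -2.12 (SE 0.22)) and Pgm1 (log2 -1.83 (SE 0.083)) showing the largest decreases. Ldhc had few reads, with means of 0.545 CPM in the WT TA and 0.124 CPM in the WT soleus, against 782 and 220 CPM for Pgm1. Of 18 other glycogen genes, 17 were tested, 8 were lower and 5 higher. The largest decreases were those of Stbd1, a glycogen-binding protein, at log2 -2.44 (SE 0.12), Gys2, the liver synthase, at -1.99 (SE 0.45), and Pgm2l1 at -1.46 (SE 0.078). Gys2 was near the floor, with means of 0.204 CPM in the WT TA and 0.0492 CPM in the WT soleus, where its lowest value was 0. The largest increases were those of Ppp1r3d (1.65 (SE 0.11)), Pygb, the brain phosphorylase (1.43 (SE 0.10)), and Ppp1r3b (0.87 (SE 0.13)). Ppp1r3d (means of 1.06 and 3.36 CPM in the WT TA and soleus) and Ppp1r3b (0.631 and 1.15 CPM) were also low.

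Of 7 other carriers and their partners, 3 were lower and 2 higher in the WT soleus, beside 27.3% and 30.2% of all genes. Slc2a3 (log2 -2.08 (SE 0.16)), Bsg, the partner that brings MCTs to the membrane (log2 -0.61 (SE 0.061)), and Slc2a8 (log2 -0.40 (SE 0.060)) were lower, and Slc16a7 (log2 0.85 (SE 0.18)) and Emb (log2 0.50 (SE 0.20)) were higher. Slc16a7 (means of 0.672 and 1.21 CPM in the WT TA and soleus) and Emb (1.35 and 1.90 CPM) were low in both muscles. Of 14 genes of pyruvate entry into mitochondria, 5 were higher and 1 lower, beside 30.2% and 27.3% of all genes. Pdk4 and Pdk1, kinases that turn pyruvate dehydrogenase off, were higher in the WT soleus by log2 1.62 (SE 0.33) and 1.38 (SE 0.052). The phosphatase Pdp2 was higher by log2 1.14 (SE 0.15), and the phosphatase Pdp1 was lower, at log2 -0.82 (SE 0.096). In ∆Ig3-MuSK mice 12 of 16 glycolysis enzymes were lower, and the counts higher and lower were 6 and 6 of 17 glycogen genes, 1 and 3 of 7 carriers and 8 and 1 of 14 genes of pyruvate entry. Over all genes tested in these mice, 28.5% were called higher and 27.6% lower.

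The next comparison asks whether loss of the Ig3 domain changed these genes within a muscle. In the TA, no member was called (0 of 35), beside 0.0149% of the 20075 genes tested, which is 3 genes. At an unadjusted p under 0.05, 9 members passed in edgeR, 3 higher and 6 lower in ∆Ig3-MuSK mice, beside 24.1% of all genes. DESeq2 and limma-voom also called 0 members, and 199 and 150.0 genes in all. The CPM ranges overlapped for all 35 members, and groups apart were rare over all genes, at 0.0288%.

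The member with the smallest p in the TA was Ppp1r3a, which ranged from 218 to 251 CPM (median 235) in the WT TA and 227 to 291 CPM (median 256) in the ∆Ig3-MuSK TA, with a log2 fold change of 0.15 (SE 0.054) and an adjusted p of 0.163. Ldha followed at -0.23 (SE 0.085), Pgk1 at -0.23 (SE 0.089), Hk2 at 0.25 (SE 0.098), Pgam2 at -0.18 (SE 0.071) and Tpi1 at -0.27 (SE 0.11), all with adjusted p from 0.163 to 0.169. Hk1 (0.19), Pgam1 (-0.13), Eno1 (-0.19) and Eno3 (-0.15) completed the 10 with the smallest p. Replicate 5 of the WT TA stood above the other WT TA libraries, with a sum over the 35 genes of 47466 CPM against 33390 to 39136, and Myh4, the myosin of the fastest fibers, was lowest in it at 11927 CPM. It also had the lowest scaling factor of all 36 libraries (0.811) and the highest share of mitochondrial counts (18.19%). Their part in its sum was not tested. Without that library the count of called members was also 0. For 33 of the 35 members the 95% interval of the genotype difference in the TA lay within 1.5-fold in either direction. The exceptions were Ppp1r3c (-0.83 to 0.21 on the log2 scale) and Pfkfb3 (-0.62 to 0.75).

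**Figure D3:**
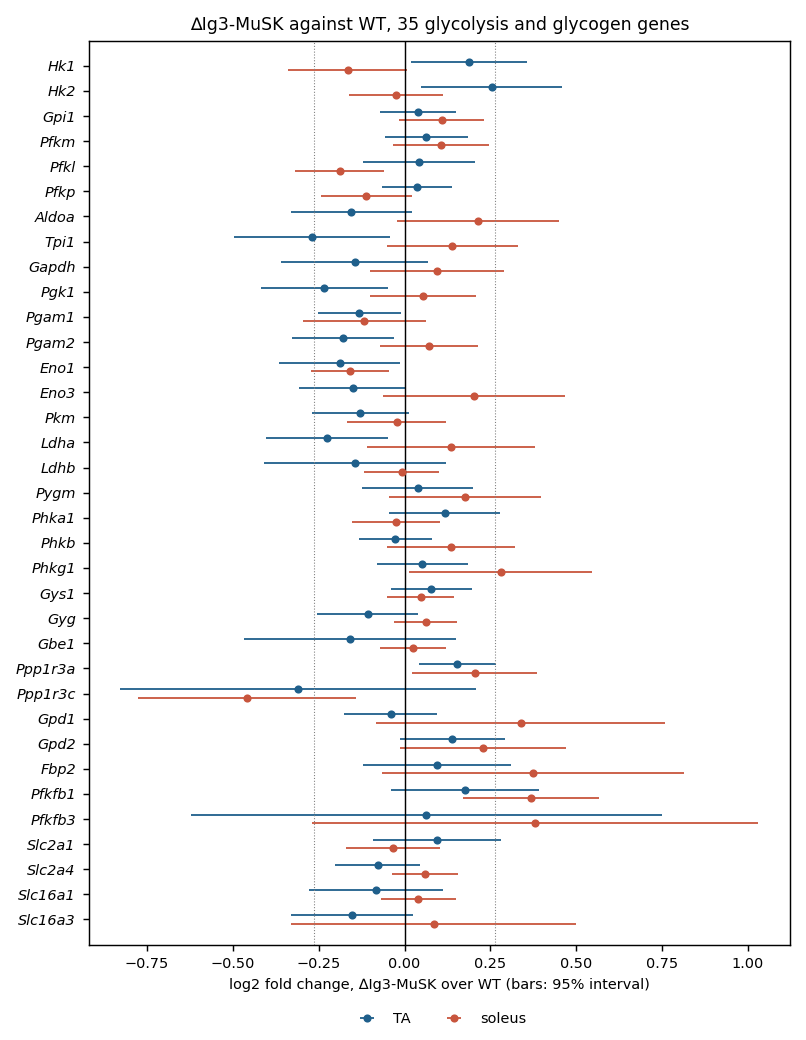
Log2 fold change of ∆Ig3-MuSK over WT (x axis) for the 35 genes (y axis), with the TA in blue, the soleus in red, 95% intervals as bars and dotted lines at a 1.2-fold difference (n = 9 libraries per group). No gene was called in either muscle, and the intervals of Pfkfb3 and Ppp1r3c were wide in both.

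In the soleus, again 0 of 35 members were called, beside 0.952% of the 19439 genes tested. At an unadjusted p under 0.05, 3 members were higher and 3 lower in edgeR, beside 18.5% of all genes. Pfkfb1 came closest to the threshold. It ranged from 15.7 to 26.0 CPM (median 19.2) in the WT soleus and 22.8 to 31.4 CPM (median 25.04) in the ∆Ig3-MuSK soleus, with a log2 fold change of 0.37 (SE 0.095), an interval of 0.17 to 0.57 and an adjusted p of 0.0578. The ranges overlapped, and ranges apart were seen for 0.072% of all genes. DESeq2 and limma-voom called Pfkfb1, with adjusted p of 0.0142 and 0.0132, and 489 and 653 genes in all against 185 in edgeR.

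Ppp1r3c, whose protein recruits the phosphatase that activates glycogen synthase, ranged from 138 to 263 CPM (median 196) in the WT soleus and 91.0 to 212 CPM (median 142) in the ∆Ig3-MuSK soleus, with a log2 fold change of -0.46 (SE 0.15) and an adjusted p of 0.12. Pfkl had -0.19 (SE 0.062) and Eno1 had -0.16 (SE 0.054), with adjusted p of 0.119 and 0.127. Ppp1r3a (0.20), Phkg1 (0.28), Hk1 (-0.17), Gpd2 (0.23), Aldoa (0.22) and Gpi1 (0.11) had adjusted p from 0.215 to 0.35. The interval lay within 1.5-fold for 31 of the 35 members, the exceptions being Ppp1r3c, Gpd1, Fbp2 and Pfkfb3. Leaving out 1 library at a time gave 0 to 3 called members, with Gpd1, Gpd2 and Pfkfb1 called without replicate 1 of the WT soleus, and Pfkfb1 alone without WT replicate 2 or ∆Ig3-MuSK replicate 7. Over all genes these 3 fits called 602, 416 and 314.

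The soleus count depended on which libraries entered. Myh4 ranged from 150.0 to 6113 CPM over the WT soleus libraries and from 252 to 4907 CPM over those of ∆Ig3-MuSK mice, and the sum of the 35 genes ranged from 12402 to 18780.0 CPM and from 14070.0 to 18560.0 CPM. Replicates 1 and 2 of the WT soleus had the highest Myh4 of that group and sums over the members of 18780.0 and 18369 CPM, against 12402 to 14673 CPM in the other 7. With both left out, 11 members were called, all higher in ∆Ig3-MuSK mice, Aldoa, Eno3, Ldha, Gpd1, Gpd2, Pfkfb1, Pfkfb3, Phkg1, Ppp1r3a, Pygm and Slc16a3, and over all genes the calls rose as well, from 185 (0.952%) to 1240.0 (6.30%). That choice was made after seeing the data and removes the 2 WT libraries with the highest sums over these genes, so it raises the difference by its construction. With the 2 libraries of highest Myh4 left out of each genotype, 9 members were called, those 11 without Ldha and Pfkfb3, beside 686 of all genes (3.52%). The remaining libraries still differed in Myh4 (150.0 to 1359 CPM in WT, 252 to 3193 CPM in ∆Ig3-MuSK mice). The ∆Ig3-MuSK replicates left out, 1 and 3, had sums of 16925 and 16948 CPM. Replicates 2 (17194 CPM) and 8 (18560.0 CPM) were higher and stayed. The WT libraries left out were again the 2 with the highest sums, so this setting also raises the difference by its construction. With the Myh4 level as a covariate and all 18 libraries kept, 0 members and 1 gene of all 19439 were called, so the loss of calls was general, and Pfkfb1 had a log2 fold change of 0.30 (SE 0.092) with an adjusted p of 0.198. The part of fiber content in these differences cannot be told apart from that of genotype here.

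**Figure D4:**
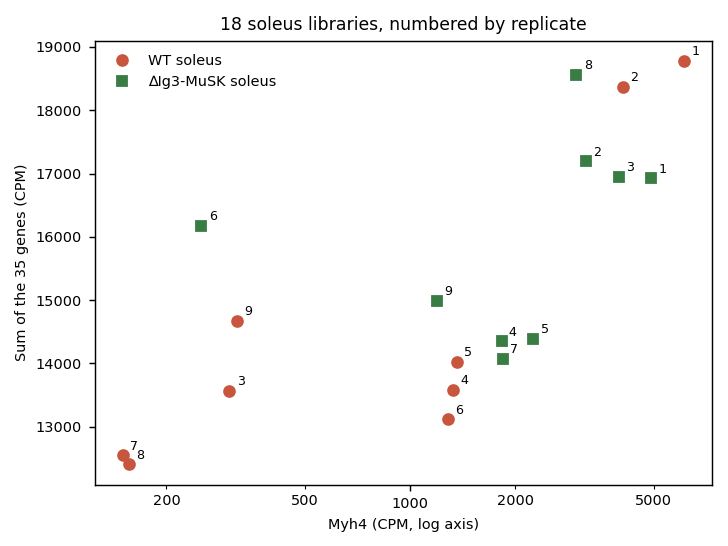
Sum of the 35 genes in CPM (y axis) against Myh4 in CPM (x axis, log scale) in the 18 soleus libraries, WT as circles and ∆Ig3-MuSK as squares, numbered by replicate. WT replicates 1 and 2 lie at the upper right, and the other 7 WT libraries lie between 12402 and 14673 CPM.

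Of the other pathway genes in the soleus, 2 of 14 genes of pyruvate entry were called between the genotypes, and 0 of 15, 16 and 7 tested genes of the other 3 lists. Over all 19439 genes tested, 0.952% were called. Pdp1, the phosphatase that turns pyruvate dehydrogenase on, ranged from 28.4 to 61.0 CPM in the WT soleus and from 47.6 to 67.0 CPM in the ∆Ig3-MuSK soleus, a log2 fold change of 0.49 (SE 0.11) with an edgeR adjusted p of 0.0381. Pdk3, a kinase that turns the complex off, ranged from 1.12 to 1.84 CPM and from 0.768 to 1.19 CPM, a log2 fold change of -0.49 (SE 0.11) with an adjusted p of 0.039. Each was lost in 13 of the 18 fits that left out 1 library, with adjusted p up to 0.079 for Pdp1 and 0.0777 for Pdk3. Pdk3 was also lost without a filter on low counts (adjusted p 0.0664) and with the title number as a replicate block (0.0699), whereas Pdp1 kept its call in both (0.0368 and 0.0233). With Myh4 as a covariate, where 1 gene of all was called, Pdp1 had a log2 fold change of 0.37 (adjusted p 0.0972) and Pdk3 of -0.38 (adjusted p 0.159).

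The last comparison asks whether the genotype difference itself differed between the muscles. For the interaction, 0 of 35 members were called by edgeR, beside 0% of the 20841 genes tested, and 10 members passed an unadjusted p under 0.05, 7 positive and 3 negative, beside 24.9% of all genes. DESeq2 called 0 members and 338 genes in all, and limma-voom called 3 members, Aldoa, Gpd1 and Tpi1, and 1352 genes in all. In edgeR, Hk1 had the smallest p, with -0.34 (SE 0.11) and an adjusted p of 0.104, from 0.19 in the TA and -0.17 in the soleus in the fits of each muscle. Tpi1 (0.42 (SE 0.15)), Aldoa (0.38 (SE 0.15)), Pgam2 (0.26 (SE 0.11)), Ldha (0.37 (SE 0.15)), Pgk1 (0.30 (SE 0.12)) and Eno3 (0.36 (SE 0.16)) were positive, with adjusted p from 0.112 to 0.152. Replicate 5 was the highest WT TA library for each of these positive genes, and the interaction was not fitted without it. Hk2, Pfkl and Gyg completed the 10 with the smallest p, at -0.27, -0.22 and 0.18. With both WT soleus libraries of highest Myh4 left out, 11 members were called for the interaction beside 1541 of all genes (7.29%), and 5 (Aldoa, Eno3, Gpd1, Ldha and Slc16a3) beside 368 (1.74%) with 2 left out of each genotype, both settings added after seeing the data. Both settings remove the WT soleus libraries with the highest sums over the members, so they raise the interaction by their construction.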

How the data were processed

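Whole TA and soleus muscles of WT and ∆Ig3-MuSK mice gave 9 libraries in each of 4 groups. Per the labels and the methods, reads were trimmed with Trimmomatic, aligned with GSNAP to GRCm38 and counted per gene with HTSeq. The library kit did not mark strand, and the authors deposited raw counts per gene, 1 table a muscle. How reads matching several genes were counted is not given in the sources used here. The study describes 1 muscle per animal, whereas numbers in the labels recur between TA and soleus. The muscle contrasts treat all libraries as independent.

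Counts were tested with edgeR 4.0.16 (R 4.3.3) by the quasi-likelihood test with TMM factors, after filterByExpr (minimum count 10, total 15). The muscle contrasts and the interaction used 36 libraries in 1 fit, and genotype used the 18 of a muscle. P-values were adjusted by Benjamini-Hochberg over all genes tested. A gene was called at an adjusted p under 0.05 and at least 1.2-fold, with no fold minimum for the interaction. DESeq2 1.42.0 and limma 3.58.1 (voom), other scaling factors, no filter, a replicate block and leaving out each library were alternatives. The fits were tested on simulated data. CPM values used TMM factors over 36 libraries, and levels of different genes were compared per kb of merged exons. Depth was 43492062 to 78660422 counts, and no 2 libraries agreed within sampling noise.

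Between muscles every member is named, and within a muscle and for the interaction every called member and the 10 with the smallest p. Of other pathway lists, the 3 largest changes in each direction between muscles and every gene called between genotypes are named where called. The members and lists were chosen with earlier results of these data known. The increases among other glycolysis enzymes are not reported here. The settings based on Myh4 were added after seeing the data.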

Additional observations from a re-analysis of the deposited data

Results flagged for a closer look

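In each group of 9 libraries, the highest and the lowest library of every member was compared with its nearest neighbour by Dixon's ratio (95% critical value). A library stood apart in 15 of 140 groups. Chance gives about 1 in 20 for a single test, but the genes share the same libraries, so the count cannot be weighed against that rate. Pfkm was at 1707 CPM in ∆Ig3-MuSK soleus, replicate 8, against 1325 to 1485 CPM in the other libraries of its group. Gys1 was at 572 CPM in ∆Ig3-MuSK soleus, replicate 8, against 466 to 514 CPM in the other libraries of its group. Aldoa was at 18150.0 CPM in WT TA, replicate 5, against 10744 to 13616 CPM in the other libraries of its group. Tpi1 was at 2463 CPM in WT TA, replicate 5, against 1173 to 1604 CPM in the other libraries of its group. Gapdh was at 2495 CPM in WT TA, replicate 5, against 1259 to 1514 CPM in the other libraries of its group. Pgk1 was at 235 CPM in WT TA, replicate 5, against 127 to 172 CPM in the other libraries of its group. Eno3 was at 5371 CPM in WT TA, replicate 5, against 3319.9 to 4068 CPM in the other libraries of its group. Slc2a4 was at 561 CPM in WT TA, replicate 5, against 423 to 482 CPM in the other libraries of its group. Aldoa was at 13375 CPM in ∆Ig3-MuSK TA, replicate 2, against 10818 to 11880.0 CPM in the other libraries of its group. Fbp2 was at 32.5 CPM in ∆Ig3-MuSK TA, replicate 2, against 17.3 to 23.4 CPM in the other libraries of its group. Pgam1 was at 15.5 CPM in WT soleus, replicate 9, against 10.9 to 13.0 CPM in the other libraries of its group. Eno1 was at 22.1 CPM in ∆Ig3-MuSK TA, replicate 1, against 14.3 to 17.7 CPM in the other libraries of its group. Gpd1 was at 668 CPM in ∆Ig3-MuSK TA, replicate 1, against 471 to 569 CPM in the other libraries of its group. Gys1 was at 571 CPM in WT soleus, replicate 2, against 440.2 to 499 CPM in the other libraries of its group. Pfkfb3 was at 53.1 CPM in WT soleus, replicate 1, against 8.40 to 24.1 CPM in the other libraries of its group.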

How the results depend on the processing

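The count of called members stayed within 33 to 34 in the WT muscle contrast and 32 to 33 in the ∆Ig3-MuSK one under every alternative run, and at 0 in the TA between genotypes. In the soleus the count of 0 (185 of all genes) became 1 with DESeq2 (489), 1 with limma-voom (653), 0 to 3 when 1 library was left out, and, in settings added after seeing the data, 11 without both WT libraries of highest Myh4 (1240.0), 9 without the 2 highest of each genotype (686) and 0 with Myh4 as a covariate (1). For the interaction it went from 0 (0 of all genes) to 3 with limma-voom (1352), and 11 (1541) and 5 (368) without those libraries. Leaving out those libraries removes the WT ones with the highest sums over the members, so it raises the difference by its construction. What else moved the counts was not tested. With the replicate number of the titles as a block, 2 members (Pfkfb1 and Ppp1r3c) and 347 of all genes were called in the soleus. Libraries of both genotypes with the same title number deviated together (correlation over 0.1) in 3 of 9 pairs in each muscle. Pairs with different title numbers did so in 15 of 72 in the soleus and 21 of 72 in the TA. The median correlation of the pairs with the same number was -0.027 in the soleus and 0.0566 in the TA. TA and soleus libraries with the same label number did so in 7 of 8 ∆Ig3-MuSK pairs (median 0.267, against -0.0243 for other pairs) and 5 of 8 WT pairs (0.109 against -0.0195), a hint that some share an animal. Since not every pair passed, the numbers were not taken as a pairing. With the label number as a block, 34 and 32 members were called between the muscles of WT and ∆Ig3-MuSK mice and 0 for the interaction, and the title block changed no other count of members by over 1.5 times. Minpp1, not called between the WT muscles at log2 0.0057, was at -0.010 with RLE factors, -0.0078 with upper-quartile factors, -0.012 without a filter, -0.012 with DESeq2 and -0.0011 with the block on label numbers. Pdk3 was a low gene, at 0.768 to 1.84 CPM over the soleus libraries, and the part of depth in its calls was not tested.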

Other observations

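Pfkfb3 and Ppp1r3c, which had the widest genotype intervals in the TA, varied severalfold among libraries of 1 group. They were singled out after their values were seen. In the ∆Ig3-MuSK TA, Pfkfb3 ranged from 64.2 to 618 CPM (median 244) and Ppp1r3c from 51.8 to 396 CPM (median 166). In the WT TA, Pfkfb3 ranged from 125 to 394 CPM (median 279.9) and Ppp1r3c from 141 to 307 CPM (median 208).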
